A study of Drosophila melanogaster with 32 samples.

Results

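The ecdysone receptor and the early transcription factors of its response were followed as 10 genes in a count table of 16257: EcR, usp, br, Eip74EF, Eip75B, Eip78C, Hr3, Hr4, Hr39 and ftz-f1. They were chosen by symbol from what is known of the pathway, with earlier results of these data also known. Each symbol matched 1 gene ID of the table. The table holds poly-A RNA counts of somatic or germ line cells that were sorted by GFP from ovaries of Drosophila melanogaster larvae and white pupae. In somatic cells the driver bab:GAL4, an insertion at bab1, switched on UAS GFP together with a UAS hpo RNAi or a UAS yki RNAi hairpin. In germ line cells nos:GAL4 did so, from a stock that also carries UAS-Dcr-2. The gene hpo encodes the kinase Hippo, and yki encodes Yorkie, the coactivator that the Hippo pathway restrains. Somatic cells were taken early (72 hours after egg laying, instar III larvae), mid (96 hours, instar III larvae) and late (120 hours, white pupae). Germ line cells were analysed mid and late. Each cell type, stage and RNAi formed a group of 3 libraries, called biological replicates in the labels, which makes 10 groups and 30 libraries. Every library carried a hairpin, each hairpin came from 1 fly line, and untreated cells were not analysed here. The early germ line samples, 1 for each RNAi, were not analysed here either.

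Ecdysone is the steroid hormone that times moulting and metamorphosis in flies. Its active form binds EcR, a nuclear receptor that acts as a dimer with Usp, the fly relative of the vertebrate retinoid X receptors. The bound receptor switches on early genes, among them br, Eip74EF, Eip75B and Eip78C. With the nuclear receptors Hr3, Hr4 and Hr39 these set the order of the later responses, and ftz-f1 is known to follow in prepupae once the hormone has fallen. In the larval ovary ecdysone signalling is known for timing the formation of the germ line stem cell niche and the differentiation of germ cells.

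Library totals ran from 15196721 to 75088407 counts. The hairpins left hpo at 5.29 to 26.6 CPM (counts scaled to a library total of 1000000) under hpo RNAi and 52.9 to 129 CPM under yki RNAi. Levels of yki in the soma were 5.05 to 14.9 CPM under yki RNAi and 16.5 to 32.9 CPM under hpo RNAi. In the mid germ line they were 6.92 to 8.58 CPM under yki RNAi and 10.3 to 15.8 CPM under hpo RNAi. Late germ line libraries overlapped, at 8.16 to 9.58 CPM under yki RNAi and 9.26 to 10.4 CPM under hpo RNAi. The 11 germ line markers summed to 6148 to 7608 CPM in germ line libraries and 14.1 to 85.6 CPM in somatic ones. The 10 ovarian soma markers summed to 1691 to 4247 CPM in the soma and 75.0 to 248 CPM in the germ line. The germ line library at 248 CPM was hpo RNAi mid replicate 1, against 75.0 to 122 CPM in the others. Of the somatic libraries, hpo RNAi mid replicate 2 stood apart in Hr4, and yki RNAi mid replicate 3 stood apart from its group in a rise of counts with transcript length. The main results that rest on these 3 libraries are given with and without them.

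Most of the 10 genes changed in the soma between the mid and late stages, and few did before. A gene was called when its adjusted p, from edgeR's quasi-likelihood test with Benjamini-Hochberg adjustment over all genes tested, was under 0.05. Averaged over both RNAi, from mid to late 7 of the 10 genes were called (6 higher, 1 lower), beside 27.2% of all 10672 genes tested (15.3% higher, 11.9% lower). The median log2 change of the 10 genes was 1.15, beside 0.05 over all genes tested. From early to mid 2 were called, both lower, beside 3.5% of all genes (1.86% higher, 1.63% lower). Within hpo RNAi, 6 of 10 were called from mid to late (15.8% of all genes) and 2 from early to mid (2.72%). Within yki RNAi, 7 were called from mid to late (13.2%) and 0 from early to mid (0.684%, with 1251 genes and 4 of the 10 at an unadjusted p under 0.05). In the germ line none of the 10 was called in any comparison. In such bulk samples, fewer cells of a type and less RNA per cell cannot be told apart.

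**Figure D1:**
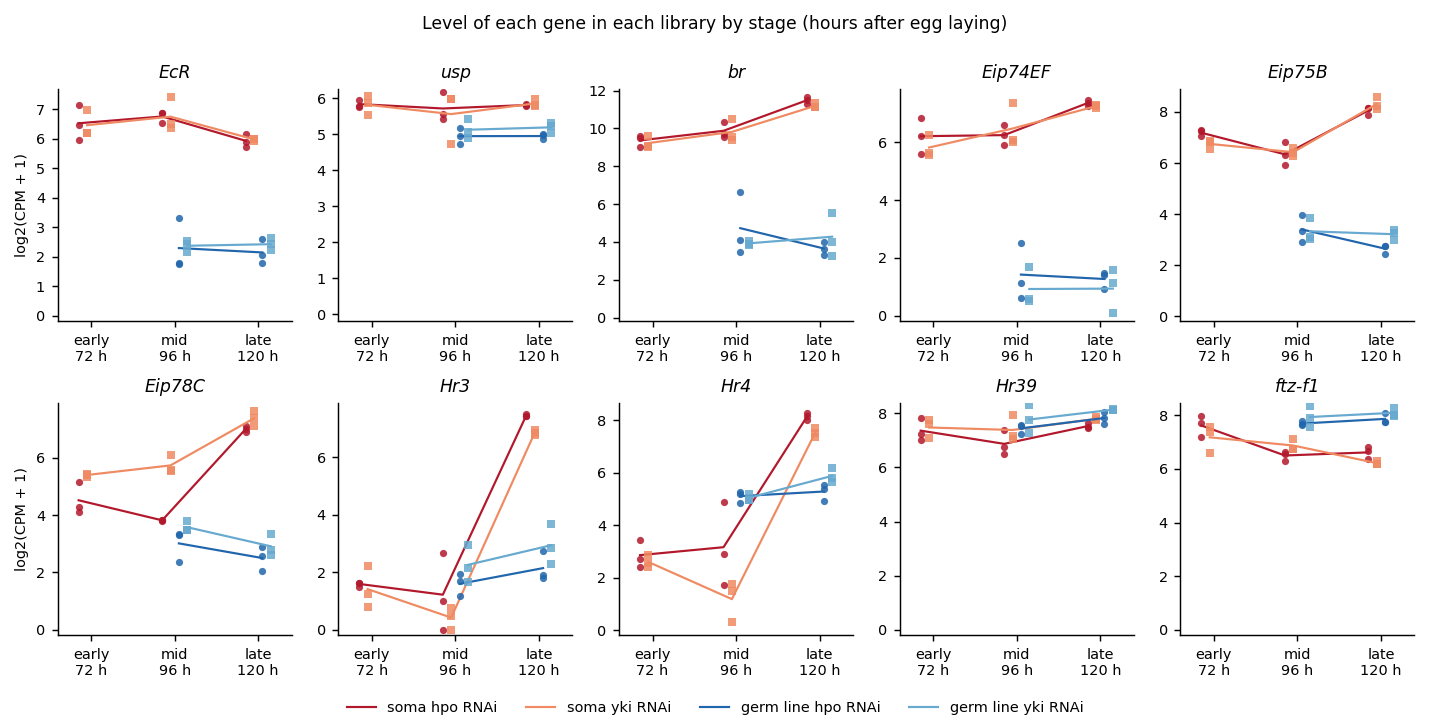
Level of each of the 10 genes, as log2(CPM + 1), against stage in hours after egg laying, with 1 point per library and lines joining the means of 3 libraries. Red circles and orange squares are somatic cells under hpo RNAi and yki RNAi, dark blue circles and light blue squares germ line cells under the same RNAi. Hr3 and Hr4 rise steeply in the late soma, EcR falls, and ftz-f1 and Hr39 lie at 148 to 325 CPM in the germ line.

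EcR, the hormone-binding receptor, fell late in the soma. EcR (FBgn0000546, 2R, 6087873 to 6169087, minus strand in BDGP6.54, as all positions here) stood under hpo RNAi at 140, 87.6 and 61.9 CPM early, 116, 116 and 91.6 CPM mid and 52.1, 58.7 and 70.7 CPM late. The yki RNAi libraries held 125, 72.5 and 73.1 CPM early, 88.6, 81.5 and 168 CPM mid and 63.0, 60.3 and 63.1 CPM late. Every late library lay below every mid library under the same RNAi, while early and mid libraries overlapped. The change from mid to late was a log2 of -0.84 (SE 0.20, adjusted p = 0.00368), and it was called in all 12 fits without 1 library. Within hpo RNAi alone it was -0.81 (adjusted p = 0.0593), and within yki RNAi alone -0.87 (adjusted p = 0.0478). The latter rested on yki RNAi mid replicate 3, the library at 168 CPM, and without it was -0.44 (adjusted p = 0.308). It was also lost without late replicate 1, 2 or 3 of the same RNAi (adjusted p = 0.122, 0.133 and 0.131). The fit of only the compared libraries lost it too (adjusted p = 0.0602). The fall within hpo RNAi was called by DESeq2 (-0.83, adjusted p = 0.0326) and in the fit of only the compared libraries (-0.82, adjusted p = 0.00819). So it was with length trends removed (-1.24, 9.56e-05), no filter (0.0268), a stricter filter (0.0358) or a replicate block (0.0469). RLE size factors and fits without 1 library did not call it.

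The partner gene usp (FBgn0003964, X, 2038798 to 2042311, minus strand) stayed between 25.4 and 71.9 CPM in all 18 somatic libraries. Its lowest value was again yki RNAi mid replicate 3, and the other somatic libraries lay at 41.7 CPM or above. No stage comparison called it, with log2 changes of -0.11 from early to mid (SE 0.17, adjusted p = 0.877) and 0.15 from mid to late (SE 0.17, adjusted p = 0.599). The late group means were 55.4 ± 1.29 CPM (hpo RNAi) and 57.2 ± 4.29 CPM (yki RNAi), each with SD and n = 3. Exons of usp share 265 bases with Actn on the same strand and 196 bases with CG4313 on the other, so that reads there could have been counted for either gene.

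Of the early genes, br had the highest level and rose late. The gene br (FBgn0283451, X, 1575132 to 1664869, plus strand) encodes the Broad zinc finger factors, which specify pupal fate. Under hpo RNAi its somatic levels were 784, 711 and 516 CPM early, 760.0, 1291 and 843 CPM mid and 2539, 3235 and 2907 CPM late. Under yki RNAi they were 774, 536 and 515 CPM early, 756, 662 and 1465 CPM mid and 2556, 2266 and 2233 CPM late. All late libraries lay above all mid ones, and the mid libraries that reached furthest up were hpo RNAi replicate 2 and yki RNAi replicate 3. Between mid and late br rose by a log2 of 1.44 (SE 0.20, adjusted p = 2.04e-05), by 1.59 within hpo RNAi (adjusted p = 0.000563) and by 1.28 within yki RNAi (adjusted p = 0.00392). From early to mid the log2 change was 0.64 (SE 0.19, adjusted p = 0.0754), not called. It was called without hpo RNAi mid replicate 1 (0.74, adjusted p = 0.0368) or yki RNAi mid replicate 2 (0.74, adjusted p = 0.0498), and once trends over transcript length were removed (0.71, adjusted p = 0.00197). With all libraries, DESeq2 (0.63, adjusted p = 0.0218) and the fit with no filter (0.64, adjusted p = 0.0399) also called it. The remaining alternatives did not.

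Eip74EF (FBgn0000567, 3L, 17558672 to 17619325, minus strand), an ETS domain factor of the early response, followed br at a lower level. Under hpo RNAi it stood at 112, 72.4 and 47.4 CPM early, 58.7, 95.8 and 74.5 CPM mid and 150.5, 163 and 176 CPM late. The yki RNAi libraries held 75.5, 48.5 and 46.3 CPM early, 63.1, 66.4 and 161 CPM mid and 157, 145 and 152 CPM late. Late libraries were above mid ones under hpo RNAi, whereas under yki RNAi the mid library at 161 CPM, again replicate 3, was above all late ones. The average rise from mid to late was a log2 of 0.86 (SE 0.23, adjusted p = 0.00904) and was called in all 12 fits without 1 library. Within hpo RNAi it was 1.10 (adjusted p = 0.0282), and this was called in 1 of 6 fits without 1 library. Those that lost it were the fits without late replicate 1, 2 or 3 (adjusted p = 0.0527, 0.0621 and 0.0923) and without mid replicate 1 or 3 (adjusted p = 0.121 and 0.082). Within yki RNAi the log2 change was 0.63 (adjusted p = 0.245), and 1.23 without mid replicate 3 (adjusted p = 0.00765).

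Eip75B (FBgn0000568, 3L, 17950953 to 18064696, minus strand) encodes a heme-binding nuclear receptor that represses Hr3 activity. It fell from early to mid and then rose. Under hpo RNAi its levels were 154, 131 and 149.9 CPM early, 111, 77.9 and 59.2 CPM mid and 281, 287 and 233 CPM late. Under yki RNAi they were 112, 92.7 and 116 CPM early, 76.5, 83.7 and 95.6 CPM mid and 298, 383 and 278 CPM late. Every late library exceeded every earlier one. The rise from mid to late was a log2 of 1.82 (SE 0.13, adjusted p = 6.91e-09), 1.74 within hpo RNAi (adjusted p = 2.52e-06) and 1.90 within yki RNAi (adjusted p = 9.6e-07).

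The fall of Eip75B from early to mid was a log2 of -0.55 (SE 0.13, adjusted p = 0.0204) on average and -0.80 within hpo RNAi (SE 0.18, adjusted p = 0.0197), where the groups did not overlap. The average lost its call without hpo RNAi mid replicate 3 (adjusted p = 0.0564), yki RNAi early replicate 3 (0.0571) or yki RNAi mid replicate 1 (0.05). The change within hpo RNAi lost it without early replicate 1 (adjusted p = 0.0587), mid replicate 2 (0.0822) or mid replicate 3 (0.107). With length trends removed the adjusted p rose to 0.0777 and 0.129, and in the fit of only the compared libraries to 0.0615 and 0.16. Within yki RNAi the log2 change was -0.29 (adjusted p = 0.592), and the difference between the RNAi was -0.51 (adjusted p = 0.434).

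Eip78C (FBgn0004865, 3L, 21226609 to 21266503, plus strand), a nuclear receptor related to Eip75B, rose late as well. Under hpo RNAi it stood at 18.5, 16.2 and 34.97 CPM early, 13.1, 13.1 and 13.0 CPM mid and 138, 119 and 127 CPM late. The yki RNAi libraries held 39.7, 41.7 and 42.4 CPM early, 45.6, 46.7 and 67.2 CPM mid and 168, 198 and 136 CPM late. The late libraries lay above all others under both RNAi, and each early and mid yki RNAi library lay above all hpo RNAi libraries of its stage. The average rise from mid to late was a log2 of 2.48 (SE 0.18, adjusted p = 8.74e-09).

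Hr3 and Hr4, nuclear receptors of the wave after the early genes, went from near absence to more than 100 CPM. Hr3 (FBgn0000448, 2R, 10203995 to 10237348, minus strand), the fly relative of the vertebrate ROR receptors and an activator of ftz-f1, stood at 5.33 CPM or below in all 12 early and mid somatic libraries. Late libraries held 174, 183 and 175 CPM when hpo was targeted and 109, 114 and 124 CPM with yki RNAi. Both mid groups held a library with 0 counts of Hr3, and the highest mid library was hpo RNAi replicate 2, at 192 counts. Between mid and late Hr3 rose by a log2 of 7.23 (SE 0.73, adjusted p = 4.8e-07), between 6.90 and 8.72 over all alternatives that gave a value.

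Hr3 counts are uncertain in how they were split between genes. CG12912 and CG46321 lie on the same strand, and 61.79% and 58.01% of the exon bases of Hr3 are also theirs. CG46321 itself stood at 60.2 CPM (hpo RNAi) and 43.6 CPM (yki RNAi) in the late soma and at 0.89 CPM or below in the earlier somatic groups, and CG12912 at 0.0748 CPM or below in every group. With the counts of these genes and of lncRNA:CR46322 summed into Hr3, a choice made after seeing the data, the late calls stood in both RNAi.

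Hr4 (FBgn0264562, X, 1941940 to 2007956, plus strand), which is known to repress early genes, stood under hpo RNAi at 9.89, 5.51 and 4.33 CPM early, 6.39, 28.4 and 2.25 CPM mid and 257, 304 and 280 CPM late. The yki RNAi libraries held 6.22, 4.24 and 4.81 CPM early, 2.38, 1.79 and 0.23 CPM mid and 208, 165 and 182 CPM late. The mid library at 28.4 CPM, hpo RNAi replicate 2, lay above every other early or mid somatic library. The rise from mid to late was a log2 of 5.70 (SE 0.52, adjusted p = 1.24e-07), 4.49 within hpo RNAi (adjusted p = 0.000133) and 6.91 within yki RNAi (adjusted p = 5.54e-06). Without mid replicate 2 the value within hpo RNAi was 6.20, and it was called in all 6 fits without 1 library. The difference of the rises, hpo RNAi over yki RNAi, was -2.43 (SE 0.88, adjusted p = 0.446), not called. Without the 3 libraries that stood apart, from early to mid Hr3, Hr4 and Hr39 were called lower, by a log2 of -2.32 (adjusted p = 0.0427), -1.02 (adjusted p = 0.0363) and -0.59 (adjusted p = 0.0411). With all libraries none of them was called (adjusted p = 0.457, 0.793 and 0.591). Leaving out hpo RNAi mid replicate 2 alone was enough to call Hr3 lower (-2.49, adjusted p = 0.0405). That library was set apart for its Hr4 level, and it was also the highest hpo RNAi mid library in Hr3 and Hr39. Leaving it out lowers these mid levels by the choice itself, so these calls do not show a fall on their own.

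Hr39 (FBgn0261239, 2L, 21237250 to 21259675, plus strand) and ftz-f1 are nuclear receptors of 1 family, and neither was called from mid to late on average with all libraries. Hr39 stood under hpo RNAi at 223, 151 and 128 CPM early, 106, 164 and 89.0 CPM mid and 173, 178 and 199 CPM late. The yki RNAi libraries held 212, 135 and 192 CPM early, 141, 132 and 244 CPM mid and 229, 221 and 212 CPM late. Late libraries lay above mid ones under hpo RNAi and overlapped them under yki RNAi, and the highest mid library of each RNAi was the one that stood apart. From mid to late the log2 change was 0.49 (SE 0.18, adjusted p = 0.0549), not called. It was 0.67 without hpo RNAi mid replicate 2 (adjusted p = 0.00747) and 0.67 without yki RNAi mid replicate 3 (adjusted p = 0.00581), called in both. Leaving out the highest mid libraries lowers the mid level by itself, and leaving out the 3 together was chosen after seeing the data. Without all 3 libraries that stood apart the log2 change was 0.84 (adjusted p = 0.00032), with 0.96 under hpo RNAi (adjusted p = 0.00386) and 0.71 under yki RNAi (adjusted p = 0.023). It was also called with no filter (0.50, adjusted p = 0.0254) and in the fit of only the compared libraries (0.50, adjusted p = 0.0431).

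The gene ftz-f1 (FBgn0001078, 3L, 18750607 to 18801309, minus strand), the competence factor of prepupae, fell from early to mid. Under hpo RNAi it stood at 207, 251 and 144 CPM early, 99.3, 92.4 and 78.0 CPM mid and 81.3, 99.4 and 113 CPM late. The yki RNAi libraries held 186, 95.8 and 166 CPM early, 107, 106 and 138 CPM mid and 77.4, 71.2 and 71.2 CPM late. The groups of early and mid did not overlap under hpo RNAi and did under yki RNAi. The fall from early to mid was a log2 of -0.72 (SE 0.15, adjusted p = 0.0115) and -1.13 within hpo RNAi (SE 0.22, adjusted p = 0.00693), called in all 12 and all 6 fits without 1 library. In the fit of only the compared libraries the value within hpo RNAi was -1.09 (adjusted p = 0.0505), not called. Within yki RNAi the change from early to mid was not called.

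From mid to late the average log2 change of ftz-f1 was -0.26 (SE 0.15, adjusted p = 0.226), and -0.52 with length trends removed (adjusted p = 0.00144). Within yki RNAi it was -0.68 (adjusted p = 0.0441), which no fit without 1 of the 6 libraries called. Its adjusted p was 0.0941, 0.129 and 0.146 without late replicate 1, 2 or 3 and 0.0569, 0.0718 and 0.157 without mid replicate 1, 2 or 3. Within hpo RNAi it was 0.15 (adjusted p = 0.748), and the difference between the RNAi was 0.83 (adjusted p = 0.47). Exons of ftz-f1 share 2521 bases with lncRNA:CR45939 on the same strand, which stood at 4.03 CPM or below in the somatic groups. In the germ line groups that gene averaged 0.235 to 28.0 CPM, highest late under hpo RNAi. With exon-sharing genes summed, a choice made after seeing the data, the late fall of ftz-f1 within yki RNAi was not called (-0.68, adjusted p = 0.0504).

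**Figure D2:**
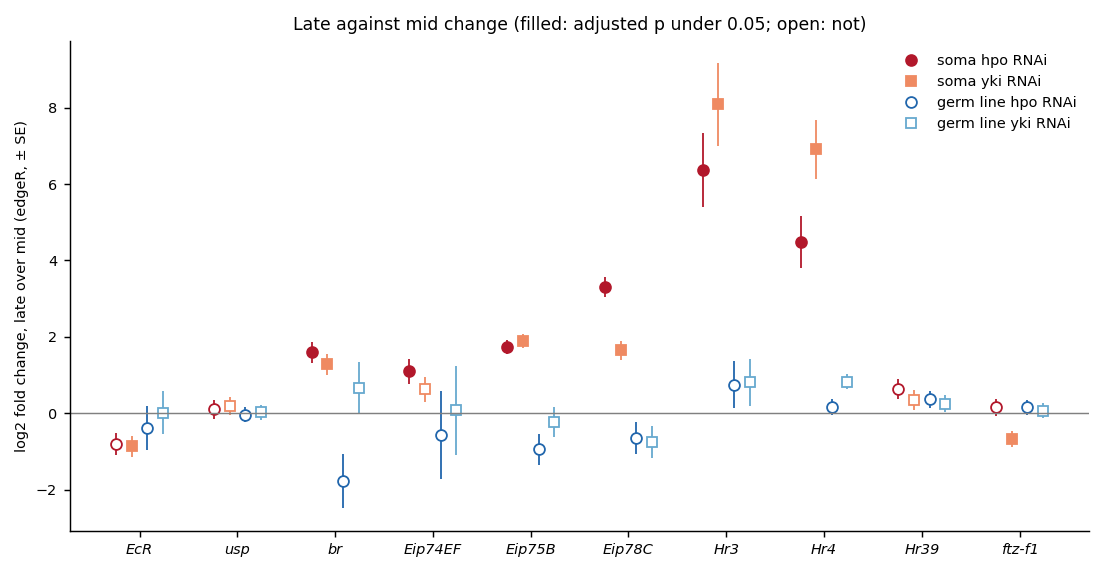
Log2 fold change of late over mid from the edgeR fits, with SE bars, for each gene in somatic (red circles, orange squares) and germ line cells (blue) under hpo RNAi and yki RNAi. Filled symbols passed an adjusted p of 0.05. The somatic values reach 8.09 for Hr3, and all germ line symbols are open.

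Other measures moved with the late stage in the soma. The 7 genes listed as hemocyte markers summed to 54.6 to 134 CPM early, 251 to 817 CPM mid and 3549 to 5409 CPM late. Nearly all of this was Col4a1, Pxn and Ppn, genes of extracellular matrix proteins, while Hml averaged 0.10 to 1.19 CPM in the somatic groups, He was at 0 in all of them, and NimC1 and eater averaged at most 0.16 and 0.06 CPM. The 10 ovarian soma markers summed to 1869 to 2498 CPM early, 1691 to 2693 CPM mid and 3337 to 4247 CPM late. Fat body markers summed to at most 9.84 CPM and salivary gland markers to at most 2.18 CPM in any somatic library. The 9 muscle markers summed to 25.7 to 48.0 CPM mid and 54.5 to 117 CPM late under hpo RNAi, and to 50.5 to 70.5 CPM mid and 21.9 to 24.0 CPM late under yki RNAi. Of these genes 8 were tested, and from mid to late 1 was called higher and 2 lower under each RNAi. Their median log2 change was -1.80 under hpo RNAi, where the sum rose, and -2.27 under yki RNAi. The 6 ring gland markers summed to at most 12.9 CPM in any somatic library, with 2.69 to 11.5 CPM mid and 3.10 to 11.4 CPM late. Counts rose with transcript length in all 6 late libraries, by a log2 of 0.026 to 0.0649 per doubling of length, and fell with it in 5 of 6 mid libraries, at -0.126 to -0.0485. The early libraries ran from -0.11 to 0.142. The longest transcripts of the 10 genes run from 3038 to 12551 bases. With each library's length trend removed, all 7 genes called from mid to late were called in the same direction, at log2 values between -1.16 for EcR and 6.90 for Hr3. What part the makeup of the sorted cells had in the late values was not tested.

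In the germ line Hr39, ftz-f1 and Hr4 were measured at 27.8 CPM or above in every library. Hr39 stood under hpo RNAi at 183, 189 and 148 CPM mid and 223, 266 and 194 CPM late, and under yki RNAi at 213, 312 and 153 CPM mid and 284, 279 and 274 CPM late. For ftz-f1 the levels under hpo RNAi were 218, 197 and 201 CPM mid and 273, 215 and 213 CPM late, and under yki RNAi 236, 325 and 187 CPM mid and 253, 306 and 258 CPM late. Mid and late overlapped except for Hr39 under hpo RNAi, where late was higher. Hr4 stood under hpo RNAi at 37.6, 35.4 and 27.8 CPM mid and 40.5, 45.4 and 29.3 CPM late, and under yki RNAi at 35.5, 29.8 and 30.3 CPM mid and 54.7, 71.0 and 49.2 CPM late. Under yki RNAi the late Hr4 libraries were above the mid ones, by a log2 of 0.83 (SE 0.20, unadjusted p = 0.00122, adjusted p = 0.543), not called.

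Of the other members, both receptor genes were detected in the germ line, usp at 25.5 to 42.2 CPM and EcR at 2.38 to 8.98 CPM. Eip75B ranged over 4.41 to 14.8 CPM, Eip78C over 3.12 to 12.8 CPM, Hr3 over 1.23 to 11.96 CPM and Eip74EF over 0.0595 to 4.70 CPM. Levels of br were 8.63 to 16.3 CPM in 10 of the 12 libraries, with 97.2 CPM in hpo RNAi mid replicate 1 and 45.8 CPM in yki RNAi late replicate 2. The first of these libraries also had the highest sum of ovarian soma markers (248 CPM) and of hemocyte markers (184 CPM, against 7.94 to 46.1 CPM in the others) and the highest EcR, Eip74EF and Eip75B. The second had a rise of counts with length of 0.233 per doubling and the next highest hemocyte sum, 46.1 CPM. What part cells of other types had in these levels was not tested.

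Beside the 0 members called in each germ line comparison, edgeR called 0.149% of 10717 genes from mid to late on average, 0% within hpo RNAi and 0.0187% within yki RNAi. Between the RNAi it called 0.103% mid and 0.187% late, and 0% for the difference of the stage changes. At an unadjusted p under 0.05 there were 939, 658, 603, 739, 822 and 358 genes, in that order, among them 2, 2, 1, 0, 1 and 2 of the 10. DESeq2 also called 0 of the 10 in each of these comparisons. In the late germ line yki averaged 8.73 CPM under yki RNAi and 9.76 CPM under hpo RNAi, while hpo averaged 74.2 and 12.9 CPM.

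Between cell types, most of the 10 genes were higher in the soma. At the mid stage 8 of 10 were called (6 higher in the soma, 2 lower), beside 54.1% of 12089 genes (25.1% higher, 29% lower). At the late stage 9 were called (8 higher, 1 lower), beside 51.9% (25.4% higher, 26.5% lower). The driver, the Dcr-2 transgene and the sort differed with the cell type and cannot be told apart from it. The scaling factors raised soma over germ line by a log2 of 0.39 relative to CPM. With no scaling factor, a choice made after seeing the data, the median of all genes moved by -0.39 mid and -0.40 late, and the calls became 7015 mid (2188 higher) and 6825 late (2259 higher), against 6537 (3034 higher) and 6278 (3073 higher).

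EcR was higher in the soma by a log2 of 5.06 mid (SE 0.31, adjusted p = 2.8e-13) and 4.37 late (SE 0.30, adjusted p = 2.18e-12), with no overlap of libraries. Its partner usp differed far less, by 1.07 mid (SE 0.16, adjusted p = 3.96e-06), where libraries overlapped, and 1.19 late (SE 0.16, adjusted p = 7.7e-07), where they did not. The early genes br and Eip74EF were higher by 5.73 and 6.33 mid and by 7.71 and 7.33 late. Eip75B was higher by 3.49 mid and 5.87 late, and Eip78C by 1.94 mid and 5.10 late. The largest adjusted p of these 8 values was 3.35e-08.

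Hr4 changed sides between the stages. At the mid stage it was lower in the soma by a log2 of -2.49 (SE 0.40, adjusted p = 9.58e-06), where only soma hpo RNAi mid replicate 2, at 28.4 CPM, reached into the germ line range. At the late stage it was higher by 2.68 (SE 0.40, adjusted p = 2.26e-06), with no overlap. Hr3 was not called mid (-1.24, adjusted p = 0.0935) and was higher late by 5.20 (SE 0.66, adjusted p = 1.98e-07). The mid difference of Hr3 was called without soma hpo RNAi mid replicate 2 (-2.66, adjusted p = 0.00106) and with no scaling factor (-1.66, adjusted p = 0.0244).

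Of the last pair, ftz-f1 was lower in the soma, by a log2 of -0.76 mid (SE 0.16, adjusted p = 0.000221) and -1.17 late (SE 0.16, adjusted p = 5.95e-07), with no overlap at either stage. Hr39 was not called, at -0.07 mid (SE 0.19, adjusted p = 0.795) and 0.08 late (SE 0.19, adjusted p = 0.747). With no scaling factor Hr39 was called lower in the soma at the mid stage (-0.46, adjusted p = 0.0315).

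The change from mid to late itself differed between soma and germ line for 5 of the 10 genes, all more positive in the soma, beside 9.78% of all genes (5.66% higher, 4.12% lower). The difference was a log2 of 6.44 for Hr3 (SE 0.88, adjusted p = 1.44e-05), 5.17 for Hr4 (SE 0.56, adjusted p = 6.17e-07) and 3.16 for Eip78C (SE 0.31, adjusted p = 1.16e-07). For Eip75B it was 2.37 (SE 0.25, adjusted p = 5.46e-07). For br it was 1.98 (SE 0.55, adjusted p = 0.0192), and 1.18 without germ line hpo RNAi mid replicate 1 (adjusted p = 0.0672). EcR was not called (-0.69, adjusted p = 0.308) and was called without that library (-1.12, adjusted p = 0.0183). The value of ftz-f1 was -0.41 (adjusted p = 0.304), and with length trends removed it was called at -0.66 (adjusted p = 0.00243).

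Between hpo RNAi and yki RNAi in the soma, Eip78C stood out among the 10 genes at the mid stage. There 2 of 10 were called, beside 2.5% of all genes. Early none was called (2.45% of genes, with 2136 genes and 2 of the 10 at an unadjusted p under 0.05, and 1 of the 10 called by DESeq2). Late none was called either (1.03%, with 615 genes and 0 of the 10 at an unadjusted p under 0.05, and 0 by DESeq2). Eip78C at the mid stage was 13.1 ± 0.0599 CPM when hpo was targeted and 53.2 ± 12.2 CPM when yki was (SD, n = 3 each), a log2 difference of -2.04 (SE 0.25, adjusted p = 0.000105). It was called in all 6 fits without 1 of these libraries and under every other alternative run.

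At the early stage Eip78C was lower under hpo RNAi by a log2 of -0.83 (SE 0.24, adjusted p = 0.0819), without overlap and not called. Without early hpo RNAi replicate 4, the library at 35.0 CPM, the value was -1.29 (adjusted p = 0.0017). Leaving out the highest hpo RNAi library widens the difference by the choice itself. With all libraries the difference was called by DESeq2 (-0.86, adjusted p = 0.0226) and with no filter (-0.89, adjusted p = 0.0297). The replicate block also called it (-1.28, adjusted p = 0.0048), and the remaining alternatives did not. At the late stage the libraries overlapped (-0.38, SE 0.24). From mid to late it rose by 3.31 under hpo RNAi (SE 0.27, adjusted p = 1.35e-07) and by 1.65 under yki RNAi (SE 0.25, adjusted p = 0.00014). The difference of these rises was 1.66 (SE 0.35, adjusted p = 0.0372), the only one of the 10 called, beside 0.403% of all genes. It kept its call in 1 of 12 fits without 1 library, the one without yki RNAi mid replicate 1, with adjusted p between 0.0596 and 0.101 in the other 11. With length trends removed it was 1.53 (adjusted p = 0.11).

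Hr4 was the other gene called at the mid stage, higher under hpo RNAi by a log2 of 3.03 (SE 0.67, adjusted p = 0.0147) although the libraries overlapped. The value rested on hpo RNAi mid replicate 2, and without it was 1.33 (adjusted p = 0.28). The call was also lost without yki RNAi mid replicate 2 (adjusted p = 0.0589) or 3 (adjusted p = 0.0531). At the late stage Hr3 and Hr4 were higher in every hpo RNAi library, by 0.62 (SE 0.76) and 0.61 (SE 0.59), not called. Fitted by themselves, the 6 late libraries gave calls for both, at 0.61 (adjusted p = 0.00299) and 0.60 (adjusted p = 0.00974). That fit also called more of all genes than the main fit did, with the count given in the closing section. For the change from early to mid, no difference between the RNAi was called among the 10 (0.131% of all genes, with 1273 genes and 3 of the 10 at an unadjusted p under 0.05, and 0 of the 10 by DESeq2).

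**Figure D3:**
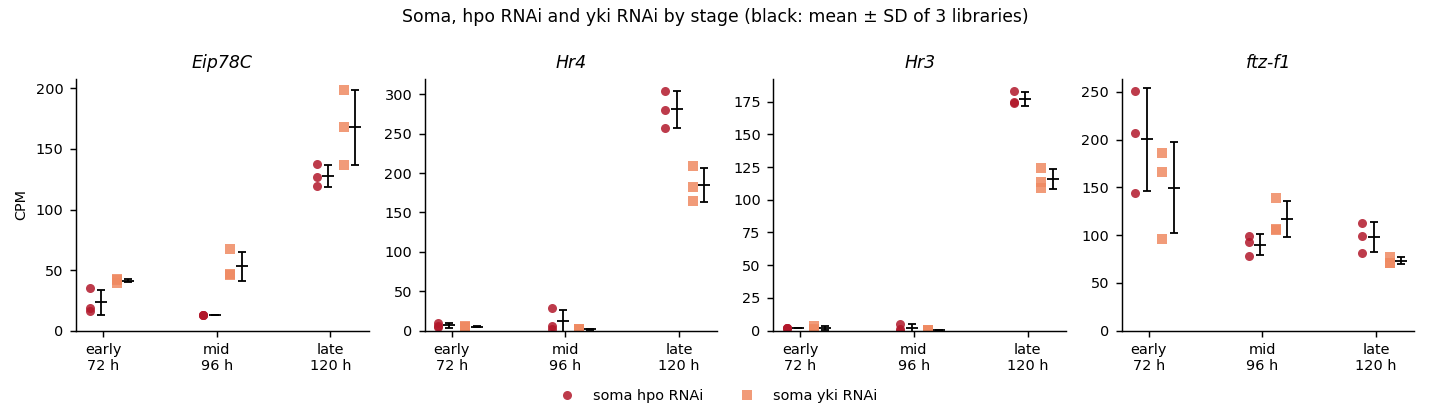
Levels in CPM of Eip78C, Hr4, Hr3 and ftz-f1 in somatic cells at each stage under hpo RNAi and yki RNAi, with 1 point per library and mean ± SD (n = 3). At the mid stage Eip78C lies at 13.1 CPM (hpo RNAi) against 53.2 CPM (yki RNAi), and the single Hr4 library at 28.4 CPM lies away from its group.

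Levels of different genes were compared per length, as CPM per kilobase of the longest annotated transcript. On that scale br led in all 6 somatic groups, from 61.9 early under yki RNAi to 295 late under hpo RNAi. Hr39 came next in each, at 24.7 to 45.6. With the length of all exons together in place of the longest transcript, Hr39 was above br in the early soma, at 33.6 against 33.2 under hpo RNAi and 36.1 against 30.1 under yki RNAi. Hr3 rose from 0.0462 (yki RNAi) and 0.265 (hpo RNAi) mid to 14.6 and 22.4 late. EcR was the lowest of the 10 in the late soma, at 7.19 and 7.38. In the germ line Hr39 led at 35.8 to 57.6, followed by ftz-f1 at 33.9 to 44.97 and usp at 9.89 to 11.8, and no other member exceeded 4.64.

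**Figure D4:**
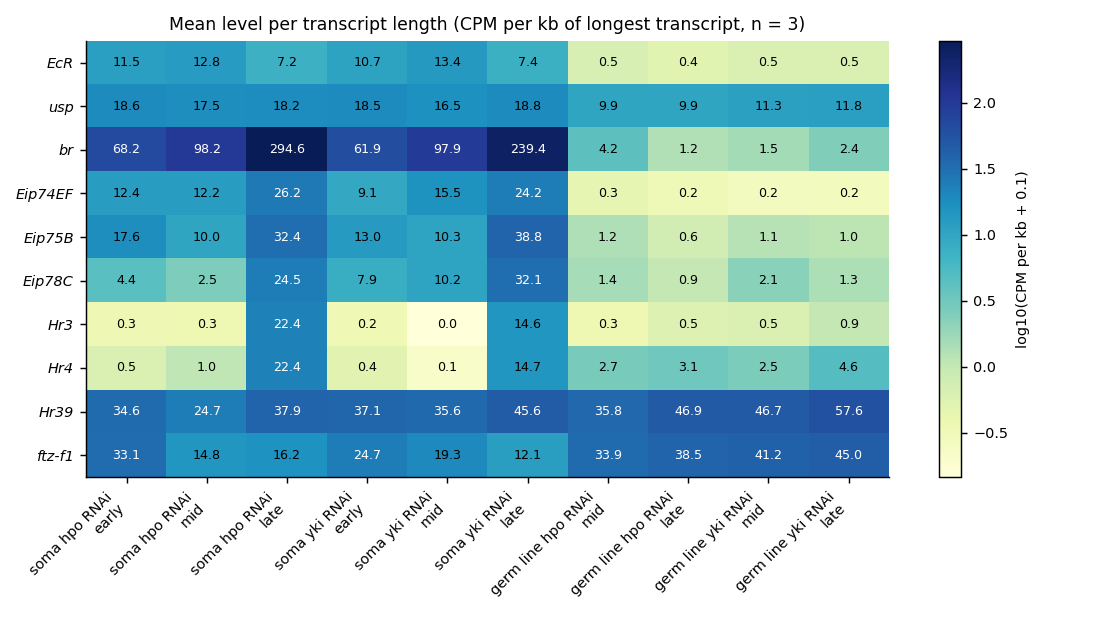
Heat map of the mean level of each gene in each of the 10 groups, in CPM per kilobase of the longest transcript (n = 3 libraries a group). The row of br is highest across the soma, and Hr39 and ftz-f1 are highest in the germ line.

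Other genes of the pathway were described from lists. Among 18 further ecdysone response genes, 13 were tested in the soma, of which 7 rose and 2 fell from mid to late, with a median log2 of 1.06 beside 0.05 over all genes, of which 15.3% were called higher and 11.9% lower. Of 13 other nuclear receptors, 7 were tested and 3 rose (median 0.63). Of 9 genes of steroid synthesis and turnover, 7 were tested, 2 rose and 2 fell (median -0.35). All 4 cofactor genes were tested and 3 rose (median 0.46), and of 3 genes of the juvenile hormone side none was called (median 0.28). From early to mid these lists held at most 1 gene called in each direction, beside 3.5% of all genes. In the germ line none of their genes was called from mid to late on average, beside 0.149% of all genes.

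EcI, which encodes the importer that carries ecdysone into cells, fell late on average and within yki RNAi. It stood at 192, 203 and 296 CPM mid and 128, 154 and 157 CPM late under hpo RNAi, each set in rising order, and at 229, 250 and 291 CPM mid and 22.4, 39.8 and 45.4 CPM late under yki RNAi. Late libraries were below mid ones under both RNAi, and those of yki RNAi were lowest. The average log2 change was -1.72 (SE 0.16, adjusted p = 2.02e-07). Within yki RNAi it was -2.83 (adjusted p = 1.93e-07), and within hpo RNAi -0.61 (adjusted p = 0.0711), not called. For EcI the difference of the changes, hpo RNAi over yki RNAi, was 2.22 (SE 0.32, adjusted p = 0.00224).

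Eip93F, a pupal and adult stage factor, was at 4.10 CPM or below in the early and mid soma and at 23.3 to 30.5 CPM (hpo RNAi) and 79.9 to 103 CPM (yki RNAi) late. Its log2 change from mid to late was 5.75 (SE 0.81, adjusted p = 2.76e-05). Eip63E, a cyclin dependent kinase gene, rose by 1.303 (adjusted p = 2.99e-07), and E23, an ABC transporter gene that dampens the ecdysone response, by 1.28 (adjusted p = 3.98e-05). Eip55E fell, at -1.05 (adjusted p = 0.00015). The nuclear receptor gene svp was at 0 in all early and mid somatic libraries and at 2.57 to 2.60 CPM (hpo RNAi) and 5.63 to 8.75 CPM (yki RNAi) late.

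From early to mid, gce, a receptor gene for juvenile hormone, fell by a log2 of 1.72 (adjusted p = 0.000855). Cyp18a1, which inactivates ecdysone, stood at -1.43 (adjusted p = 0.0108) and vri at -0.62 (adjusted p = 0.0322). ImpE1 rose by 3.29 (adjusted p = 0.0198). Between the RNAi, gce was lower under hpo RNAi mid (-1.90, adjusted p = 0.00812) and late (-1.83, adjusted p = 0.0217).

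Across the 18 somatic libraries, the 10 genes were set against each other and against 6672 genes by Pearson's r of log2 levels, as a description in which stage, depth and length trends are shared. Hr3 and Hr4 were the closest pair (r = 0.964), followed by br and Eip74EF (0.939) and Eip75B and Hr3 (0.904). EcR and Hr3 were furthest apart (r = -0.732). The gene most like br was l(3)neo38 (0.987), and the one most like Eip75B was srp (0.955). CG46321, whose exons lie on those of Hr3, was most like Hr3 (0.932). For EcR it was spoon (0.865), for usp CG5339 (0.878), for Eip74EF CG42671 (0.949) and for Eip78C tal-1A and tal-2A (0.958 each). For Hr4 it was CG6739 (0.936), for Hr39 par-1 (0.914) and for ftz-f1 scrib (0.935).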

How the data were processed

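The authors deposited expected counts, that is estimated counts of reads for each gene, added up over runs and with no normalization. Of these, 86.5% were whole to within 1e-06, and all were rounded. The submitters' processing notes name bcl2fastq 2.2, STAR 2.7.6a, RSEM 1.3.3 and DESeq2 1.26.0. Build, annotation and strand are not given in the sources used here. Of 32 labelled samples 30 matched a column, and 18 other columns were not used here. Counts were fitted in R 4.3.3 with edgeR 4.0.16 (TMM, filterByExpr at a minimum count of 10, quasi-likelihood test, Benjamini-Hochberg adjustment over all genes tested, called under 0.05): 18 somatic libraries (10672 genes), 12 germ line libraries (10717) and all 30 (12089). The 10 members were tested in every fit. SE is the log2 change over the square root of F. CPM use library totals. Positions are of gene IDs in BDGP6.54 (16206 matched, 51 did not). There the listed genes nos, phm, EcI, Eip55E, Eip71CD and ImpL3 are named nanos, phtm, Oatp74D, Cth, MsrA and Ldh. Where labels do not say how replicates were raised, p-values measure only the spread between them. The scripts were tested on simulated data. Named list genes were the up to 6 per comparison with the smallest adjusted p. Members and lists were chosen with earlier results of these data known. Alternatives were RLE size factors, no filter, a stricter filter (5 CPM in 3 libraries), DESeq2 1.42.0, a fit of only the compared libraries, a replicate block, removal of length trends, and leaving out each library. Leaving out 3 libraries together, summing exon-sharing genes and using no scaling factor were chosen after seeing the data. The annotation gave no sequences, and none are shown.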

Additional observations from a re-analysis of the deposited data

Results flagged for a closer look

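These values are listed because an effect differed between the RNAi or between the cell types. The rise of Eip78C from mid to late in the soma was larger under hpo RNAi than under yki RNAi, by a log2 of 1.66. From mid to late the soma changed more than the germ line for br (1.98), Eip75B (2.37), Eip78C (3.16), Hr3 (6.44) and Hr4 (5.17), each by a test of the difference itself. For br the call was lost without germ line hpo RNAi mid replicate 1 (1.18, adjusted p = 0.0672).

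In the soma from early to mid, Eip78C was lower in every mid library than in every early one under hpo RNAi and higher in every one under yki RNAi. The main fit called neither change, while DESeq2 called the fall under hpo RNAi (-0.81, adjusted p = 0.0396). The test of the difference between the RNAi gave -1.21 (adjusted p = 0.206), not called. Under hpo RNAi, Eip75B was higher late than mid in the soma and lower in the germ line, with no overlap in either. Under yki RNAi, Eip78C did the same. For these 2 the difference was tested as the mean of both RNAi only, at 2.37 and 3.16. Neither fall in the germ line was called. These patterns were searched for among the members only, and how often all genes show them was not counted.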

How the results depend on the processing

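No called log2 value of a member changed sign: of 1031 such values under the alternatives, 977 were called in the same direction. Among the average stage changes in the soma, those called in every fit run that gave a p were, from mid to late, the rises of br, Eip74EF, Eip75B, Eip78C, Hr3 and Hr4 and the fall of EcR, and, from early to mid, the fall of ftz-f1. So was Eip78C between the RNAi mid. Counts of members called moved as follows, and the cause was not tested. For soma early to mid (2), it was 1 under the replicate block, 1 in the fit of only the compared libraries and 5 without the 3 libraries, and 1 to 3 with 1 library left out. Within hpo RNAi (2) it was 1, 0, 1, and 1 to 3. For hpo RNAi against yki RNAi early (0) it was 1 with no filter, under the block and by DESeq2, and 0 to 1 with 1 library left out. For the mid stage (2) it was 1 in the fit of only the compared libraries and without the 3 libraries, and 1 to 3. For the late stage (0) it was 2 in the fit of only the compared libraries. The RNAi difference in the late rise (1) was 0 with length trends removed and without the 3 libraries, and 0 to 1.

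Counts over all genes moved more. DESeq2 against edgeR gave, for early to mid, 876 against 373 on average, 805 against 290 within hpo RNAi and 368 against 73 within yki RNAi. Between the RNAi it gave 863 against 261 early, 580 against 267 mid and 198 against 110 late, and for their differences over stage 252 against 14 (early to mid) and 183 against 43 (mid to late). In the germ line it gave 187 against 16, 80 against 0 and 38 against 2 for mid to late (average, hpo RNAi, yki RNAi), 90 against 11 and 113 against 20 between the RNAi mid and late, and 12 against 0 for the difference. The fit of only the compared libraries gave 163, 52 and 16 for early to mid, 76, 137 and 641 between the RNAi by stage, 3 and 100 for the differences, and in the germ line 1 for yki RNAi and 6 and 37 between the RNAi. With no filter the counts were 118 for yki RNAi early to mid, 25 and 86 for the differences, and 51, 20, 9, 26 and 56 in the germ line. The stricter filter gave 9 for the difference from early to mid. Without the 3 libraries they were 242, 147 and 43 for early to mid and 8 for germ line mid to late. Removing length trends gave 37 for the latter.

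Deviations of same-numbered libraries correlated at r from -0.0821 to 0.101 in the soma and -0.0749 to 0.176 in the germ line. Not every pair was over 0.1 (1 of 40 and 2 of 12), so that numbers were not taken to pair samples. In the germ line the median r was 0.0514 for same-numbered and -0.00369 for other pairs, and the 3 pairs of replicate 4 had 0.0955, 0.132 and 0.176, a hint from the data only. Under the replicate block Eip75B from early to mid was not called on average (-0.54, adjusted p = 0.0573) or within hpo RNAi (-0.78, adjusted p = 0.0627). The replicate block gave 245 genes against 373 for early to mid and 3 against 14 for its difference between the RNAi. With 1 library left out the rest of its group is assumed to vary like other groups. DESeq2 gave no p for 14 values, all of Hr3, and the stricter filter removed Eip74EF from the germ line fit. Low counts limit Hr3 before the late stage, at 0 to 192 counts a library.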
